A study of Mus musculus with 6 samples.

Results

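Semaphorins are secreted or membrane-bound guidance proteins, plexins are their signalling receptors, and neuropilins are co-receptors that bind the secreted class and also bind vascular endothelial growth factors. The family was taken as all genes on the array whose symbol begins with Sema and a digit or with Plxn, a class letter and a digit, together with Nrp1 and Nrp2. This gave 32 of the 22180 genes tested, namely 20 semaphorins, 9 plexins, 2 neuropilins and Plxna4os1, an antisense RNA gene named after Plxna4. All 32 family genes of the RefSeq table were measured, 30 with 1 probe set and 2, Plxna1 and Plxnb1, with 2. The rule uses gene symbols alone.

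In this family, class 3 semaphorins are secreted and mostly signal through a neuropilin joined to an A-class plexin, while Sema3e can bind plexin D1 directly. Classes 4, 5 and 6 span the membrane, and Sema7a is held to the membrane by a lipid anchor and binds plexin C1 and integrins. The cytoplasmic part of a plexin acts on small GTPases of the Ras and Rap families, so that binding usually loosens adhesion and reshapes the actin skeleton. In the lung the family is known for roles in airway branching, vessel patterning and the crosstalk of mesenchyme with epithelium.

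RNA came from primary lung fibroblasts of adult mice of mixed strain, genotype UBCCreERT/RSmoM2, and passaged at most 3 times. Cre fused to a tamoxifen-responsive receptor is driven by the broadly active ubiquitin C promoter in these mice, and the activated Smoothened allele SmoM2 lies silent in the Rosa26 locus until Cre acts. The control group was 3 wells given vehicle, and the treated group was 3 wells given 1 µg/ml 4-hydroxytamoxifen (4OHT), both for 48 h, with 1 single-colour Affymetrix array per well. Wells of both groups carried Cre and the SmoM2 allele, so the drug, Cre activity and SmoM2 cannot be told apart. Per the labels, the cells were divided among wells under 1 genotype number, and no separate animals are named, so p-values reflect the scatter among wells alone and that scatter may be technical. Values are log2 expression, and the number of arrays limits their precision.

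The 6 arrays were alike, with Pearson's r across genes from 0.997 to 0.998 within groups and from 0.995 to 0.996 between them, and 2662 of 22180 genes (12%) were called at an adjusted p under 0.05 by limma with Benjamini-Hochberg adjustment. Gli1, the usual readout of hedgehog signalling, rose by 0.35 on the log2 scale, while Ptch1 and Hhip had log2 fold changes of 0.08 and 0.05 and were not called. The Gli1 call was lost without vehicle well 1, 2 or 3 (adjusted p = 0.0538, 0.0541 and 0.0543 by limma). Gli1 and Hhip lay below the median level of all genes, with vehicle means of 6.46 and 5.55. All 7 measured genes of a G2/M list fell, with a median log2 fold change of -1.41. Of 10 fibroblast markers 1 fell (Col3a1, by 0.29 on the log2 scale), and their mean log2 level was 12.46 to 12.49 on vehicle arrays and 12.37 to 12.38 on 4OHT arrays. Of 8 smooth muscle and pericyte markers 6 fell and none rose, with a mean level of 11.44 to 11.46 on vehicle arrays and 10.96 to 11.01 on 4OHT arrays. Of 8 endothelial markers Cdh5, the endothelial cadherin gene, Emcn and Pecam1 fell by 0.95, 0.92 and 0.36 (log2), whereas Tek and Kdr rose by 0.42 and 0.21, with a mean level of 6.74 to 6.86 on vehicle arrays and 6.59 to 6.65 on 4OHT arrays. Of 6 mesothelial markers Lrrn4 and Upk3b fell and Msln rose, with mean levels of 11.24 to 11.27 and 11.12 to 11.17. In the Schwann cell and neuron list 1 of 6 measured genes fell (Tubb3) and the mean levels were 7.20 to 7.26 and 7.06 to 7.10. Macrophage markers (Cd68 higher and Lyz2 lower of 9), epithelial markers (Krt8 lower of 8) and lymphocyte markers (none of 6) had mean levels that overlapped between the groups. Above the median level of all genes lay 10 of 10 fibroblast, 8 of 8 smooth muscle and pericyte, 5 of 6 mesothelial, 2 of 8 endothelial, 3 of 9 macrophage, 2 of 8 epithelial and 0 of 6 lymphocyte markers. The part of these shifts in the results below was not tested, and in bulk RNA fewer cells of a type and less RNA per cell cannot be told apart.

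Semaphorin family genes moved in both directions after 4OHT. Sema3b, Sema5a, Sema6a, Nrp2 and Sema3d rose, and Sema3f, Sema7a, Plxna4, Plxnb1, Sema3c and Plxnd1 fell, so that 11 of 32 members (34.4%) were called, against 12% of all genes tested. The 5 that rose make up 15.6% of the members, against 5.38% of all genes called higher, and the 6 that fell make up 18.8%, against 6.62% called lower. Members were brighter than most genes. In a fit of the genes above the median level alone, 14 of 24 members were called (58.3%), against 35% of all such genes. The groups did not overlap in 16 of 32 members (50%), against 32.7% of all genes. The median log2 fold change was 0.0017 for the members and -0.0051 for all genes, and the median absolute log2 fold change was 0.11 and 0.092. The count of members called was 6 without vehicle well 1, 5 without vehicle well 2, 7 without vehicle well 3, 7 without 4OHT well 1, 6 without 4OHT well 2 and 9 without 4OHT well 3. These counts are 15.6% to 28.1% of the members, against 5.5% to 10.5% of all genes called in the same fits. Sema3b, Sema5a, Sema3f, Sema7a and Plxna4 were called whichever array was left out.

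**Figure D1:**
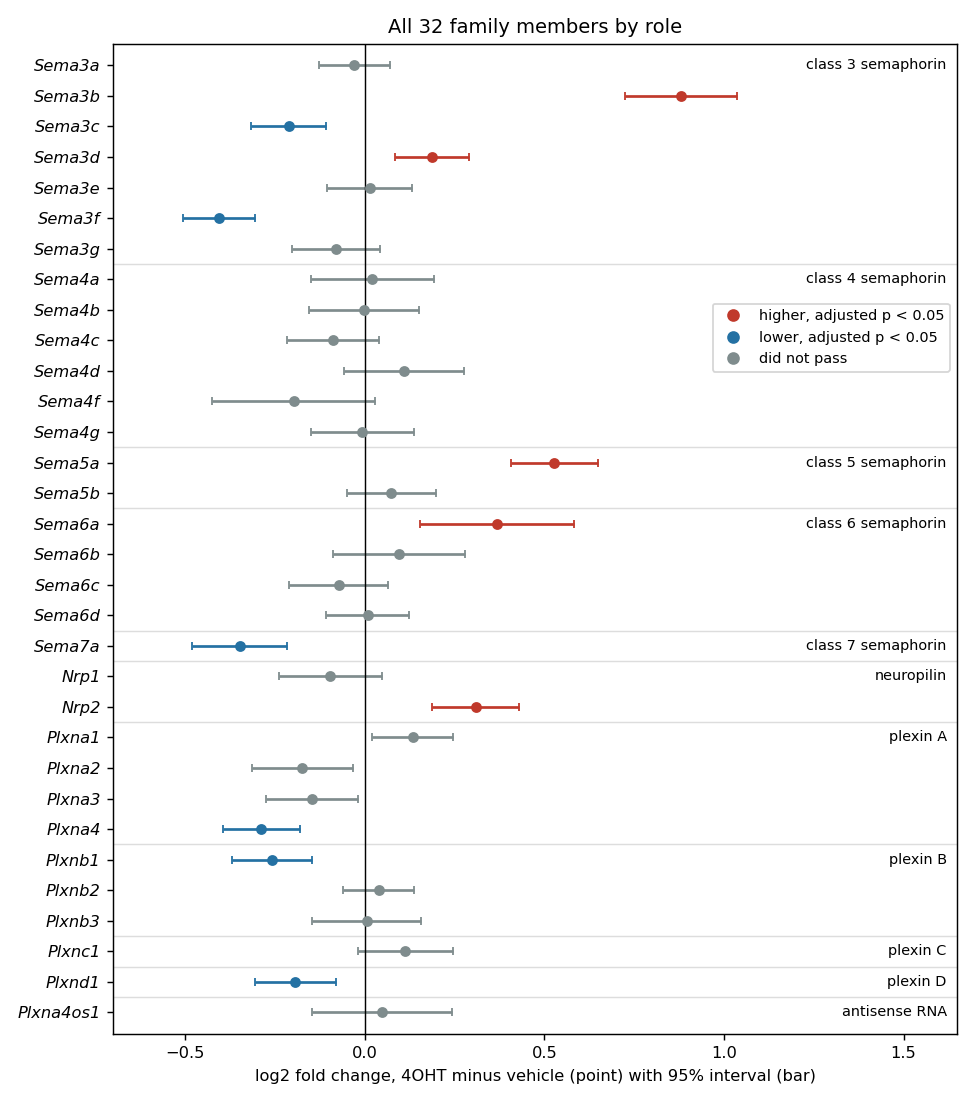
Log2 fold change (4OHT minus vehicle, horizontal axis) of all 32 members, grouped by role from top to bottom; points are limma estimates from 3 arrays per group and bars are 95% intervals, with called genes coloured. Sema3b stands farthest to the right at 0.88 and Sema3f farthest to the left at -0.41, and the 6 class 4 semaphorins all have intervals that include 0.

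Promoter sequences of members were searched for letters that the hedgehog factors bind. RefSeq windows of 250 bases before to 50 bases after a transcript start (build GRCm38.p6) were at hand for 26 of the 32 members, in 37 windows, and for 7 of the 11 called. The called members Sema3b, Sema3f, Sema6a and Plxna4 had no window and were not searched. The Gli consensus GACCACCCA, searched on both strands, stood in none of the 37 member windows and in 0.253% of all 32851 windows. At so low a share, no match in 37 windows was likely beforehand, and hedgehog control of the members was not tested. TTTGAA, a motif of cell cycle genes searched on both strands, stood in 4 of the 37 member windows (10.8%) and in 17.9% of all windows. These were windows of Sema3a, Sema3e, Sema3g and Sema6d, which were not called. None of the 7 called members with a window held it, and 7 are too few to read a contrast. The GC box GGGCGG, bound by Sp1-family factors and searched after the sequences were seen, stood in 27 of the 37 member windows (73.0%) and in 35.7% of all windows; 6 of the 7 called members held it, and 21 of all 26. The counts of members are per gene, some with several windows, so the share of all windows is not a background for them. Whether the higher share of member windows follows from G and C content (median 52.7% in all windows) was not tested. A match describes the letters of the window only. The bases before the start of 3 genes that rose and of Sema3c, which fell, are shown on the plus strand with GC boxes of either strand in capitals, since Sema3d and Sema3c, which lie on chromosome 5 with Sema3a and Sema3e between them, moved in opposite directions. They lie at chr15:32244563-32244812 (Sema5a), chr1:62703067-62703316 (Nrp2), chr5:12382916-12383160 (Sema3d) and chr5:17574566-17574815 (Sema3c).
Sema5a: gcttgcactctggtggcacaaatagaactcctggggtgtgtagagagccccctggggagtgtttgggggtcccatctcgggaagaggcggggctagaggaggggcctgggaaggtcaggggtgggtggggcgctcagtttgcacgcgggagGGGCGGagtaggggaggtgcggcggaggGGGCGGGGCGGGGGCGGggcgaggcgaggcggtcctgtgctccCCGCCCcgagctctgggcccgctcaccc
Nrp2: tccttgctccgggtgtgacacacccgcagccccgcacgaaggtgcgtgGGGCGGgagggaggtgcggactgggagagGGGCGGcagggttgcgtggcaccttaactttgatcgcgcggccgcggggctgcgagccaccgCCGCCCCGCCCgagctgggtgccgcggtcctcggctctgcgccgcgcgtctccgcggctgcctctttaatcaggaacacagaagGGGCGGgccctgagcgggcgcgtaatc
Sema3d: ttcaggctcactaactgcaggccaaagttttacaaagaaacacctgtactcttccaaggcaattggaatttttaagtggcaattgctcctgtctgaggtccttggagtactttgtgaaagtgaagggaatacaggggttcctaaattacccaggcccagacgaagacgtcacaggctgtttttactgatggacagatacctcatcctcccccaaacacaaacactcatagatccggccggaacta
Sema3c: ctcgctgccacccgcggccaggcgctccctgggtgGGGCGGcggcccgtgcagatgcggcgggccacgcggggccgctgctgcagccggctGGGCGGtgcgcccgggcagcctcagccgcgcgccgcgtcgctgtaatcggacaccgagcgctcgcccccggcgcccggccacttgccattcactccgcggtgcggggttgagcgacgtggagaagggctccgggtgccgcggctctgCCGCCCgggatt
The Sema3d stretch held no GC box, 4 CpG and 46.1% G and C, whereas the Sema3c stretch held 3 GC boxes, 39 CpG and 78.4% G and C. Sema5a and Nrp2, which both rose, each held 5 GC boxes, some of them overlapping, at 72.0% and 72.4% G and C.

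The secreted class 3 semaphorins moved in both directions. Sema3b and Sema3d rose, Sema3f and Sema3c fell, and Sema3a, Sema3e and Sema3g were not called. The share called was 4 of 7 (57.1%), against 12% of all genes. Sema3b, a neuropilin ligand first studied as a candidate tumour suppressor of lung cancer, showed the largest change of the family. Its log2 level (probe set 17530930) was 8.19, 8.40 and 8.30 on the vehicle arrays and 9.19, 9.22 and 9.11 on the 4OHT arrays. Every 4OHT array lay above every vehicle array, a 1.84-fold rise (log2 fold change 0.88, SE 0.065, limma adjusted p = 0.000668). Sema3f, which signals mainly through neuropilin 2 and repels endothelial and tumour cells, went the other way. Its log2 level (probe set 17531001) was 12.13, 12.18 and 12.18 on the vehicle arrays and 11.77, 11.73 and 11.77 on the 4OHT arrays. The groups stood apart with little spread in either, and Sema3f was 1.32-fold lower (log2 fold change -0.41, SE 0.042, limma adjusted p = 0.00196).

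Sema3c and Sema3d, which bind neuropilins and act in heart outflow tract and vessel development, changed less. Sema3c (probe set 17434973) read 12.72, 12.72 and 12.69 in log2 units on the vehicle arrays and 12.55, 12.47 and 12.49 on the 4OHT arrays, without overlap. It was 1.16-fold lower (log2 fold change -0.21, SE 0.044, limma adjusted p = 0.0254). That call was lost without vehicle well 1 (limma adjusted p = 0.0831), vehicle well 2 (0.0916), vehicle well 3 (0.0534), 4OHT well 2 (0.101) or 4OHT well 3 (0.0624), and with every probe set of the array in the fit (0.0720). Sema3d (probe set 17434742) read 12.14, 12.16 and 12.15 on the vehicle arrays and 12.38, 12.34 and 12.29 on the 4OHT arrays, again without overlap. It was 1.14-fold higher (log2 fold change 0.19, SE 0.043, limma adjusted p = 0.0368), and the call was lost without vehicle well 1 (0.106), vehicle well 2 (0.107), vehicle well 3 (0.0834), 4OHT well 1 (0.117) or 4OHT well 2 (0.121), and with every probe set in the fit (0.0952). Sema3a, which collapses growth cones, lay at a log2 fold change of -0.03 (95% interval -0.13 to 0.07). Sema3e, the plexin D1 ligand, had one of 0.01 (95% interval -0.10 to 0.13), and Sema3g, a semaphorin of endothelium, one of -0.08 (95% interval -0.20 to 0.04).

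**Figure D2:**
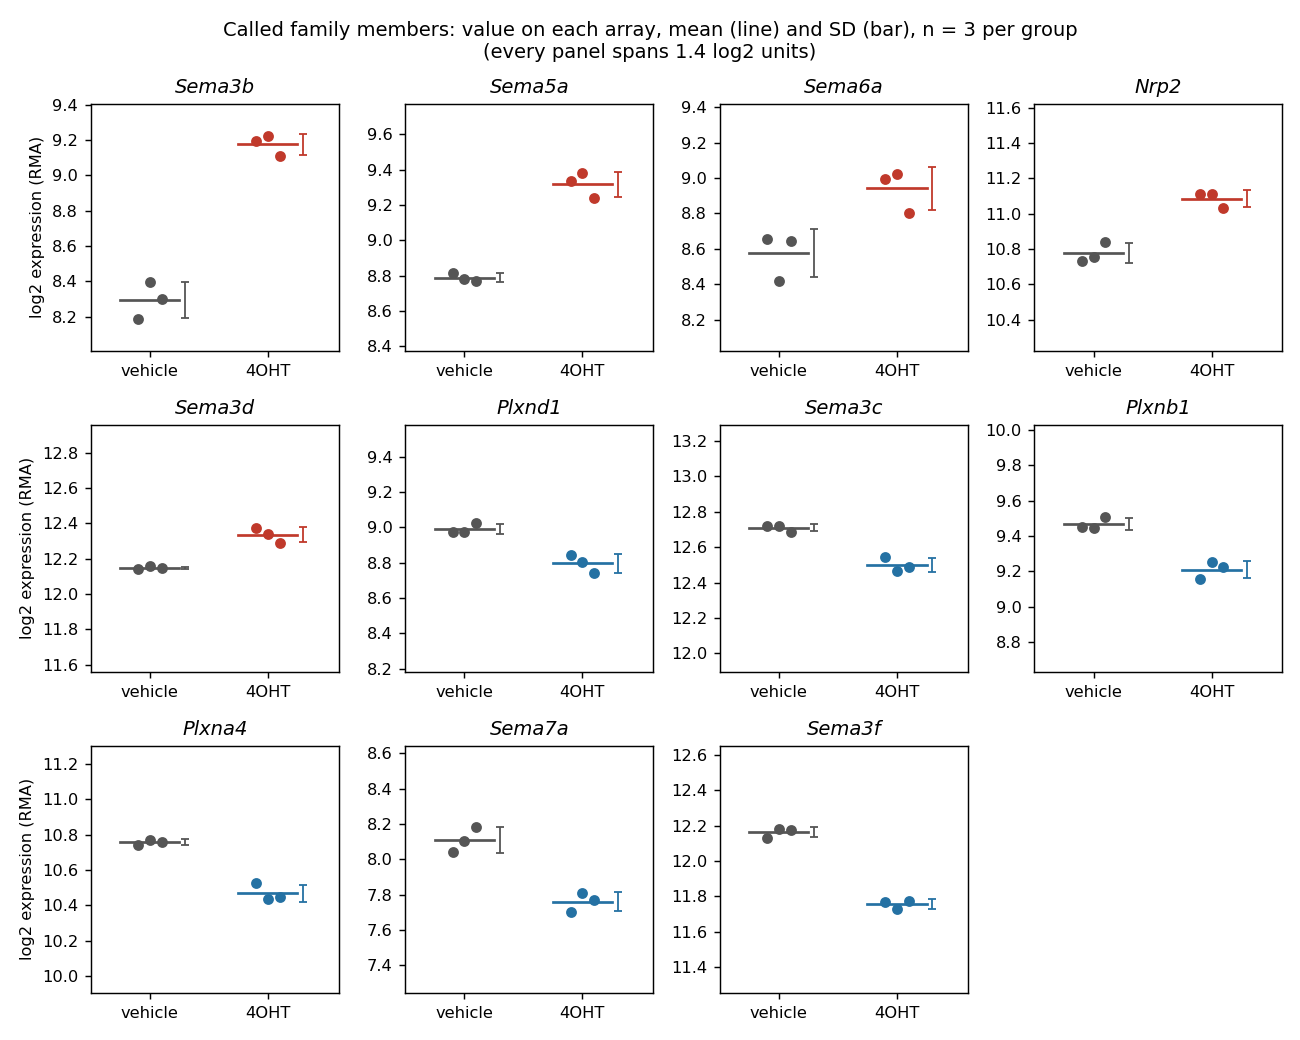
Log2 expression on each of the 3 vehicle and 3 4OHT arrays for the 11 called members, 1 panel per gene, every panel spanning the same height; lines are group means and bars the SD. In each panel the 4OHT points lie wholly above or wholly below the vehicle points, from a rise of 0.88 for Sema3b to a fall of 0.41 for Sema3f.

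Sema3b and Sema3f, the family genes with the largest rise and the largest fall, are near neighbours on chromosome 9 in the RefSeq gene order of GRCm38.p6, with Gnai2, Slc38a3 and Gnat1 between them. These genes were looked up after the values of Sema3b and Sema3f were seen. Gnai2, which encodes an inhibitory G protein subunit, showed a log2 fold change of -0.20 (limma adjusted p = 0.0541), the amino acid transporter gene Slc38a3 one of -0.12 (0.168) and the transducin gene Gnat1 one of 0.03 (0.844). Counting 3 protein-coding genes on either side as well, none of the 8 measured neighbours was called, against 12% of all genes. Among 8 genes such a count lies near that share. Lsmem2, a flanking gene, had no probe set with its symbol alone.

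**Figure D3:**
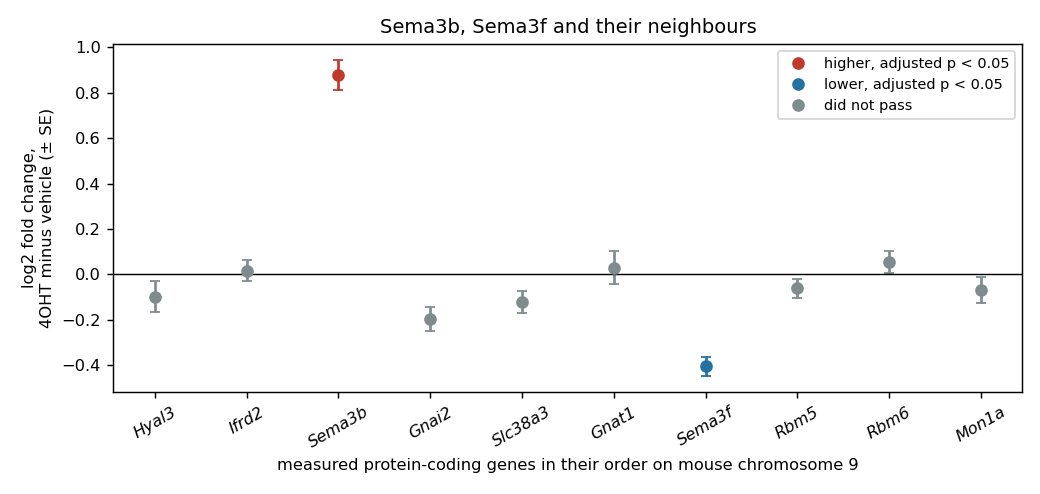
Log2 fold change with its SE (vertical axis) of Sema3b, Sema3f and the 8 measured protein-coding neighbours in their order on chromosome 9. Sema3b lies at 0.88 and Sema3f at -0.41, and the neighbours lie between -0.20 and 0.05.

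Among membrane semaphorins, Sema5a and Sema6a rose and Sema7a fell. Sema5a carries thrombospondin repeats beside its semaphorin domain and can attract or repel axons. Its log2 level (probe set 17310837) was 8.82, 8.78 and 8.77 on the vehicle arrays and 9.33, 9.38 and 9.24 on the 4OHT arrays. All 4OHT arrays were higher, a 1.44-fold rise (log2 fold change 0.53, SE 0.051, limma adjusted p = 0.00155). Its class partner Sema5b showed a log2 fold change of 0.07 (95% interval -0.05 to 0.20) and was not called. Sema6a, a ligand of plexins A2 and A4, read 8.66, 8.42 and 8.65 (probe set 17354299) on the vehicle arrays and 9.0, 9.03 and 8.80 on the 4OHT arrays. The groups did not overlap, but both spread widely (SD 0.14 and 0.12, n = 3), and the rise was 1.29-fold (log2 fold change 0.37, SE 0.090, limma adjusted p = 0.0442). This call was lost without vehicle well 1 (limma adjusted p = 0.0732), vehicle well 2 (0.105), vehicle well 3 (0.0740), 4OHT well 1 (0.135) or 4OHT well 2 (0.141), and with every probe set in the fit (0.0966). The other class 6 members, Sema6b, Sema6c and Sema6d, had log2 fold changes of 0.09, -0.07 and 0.01 and were not called.

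Sema7a, the lipid-anchored member that binds plexin C1 and β1 integrins and has been linked to lung fibrosis, fell. Its log2 level (probe set 17517812) was 8.04, 8.10 and 8.18 on the vehicle arrays and 7.70, 7.81 and 7.77 on the 4OHT arrays. The groups did not overlap, and the gene was 1.27-fold lower (log2 fold change -0.35, SE 0.055, limma adjusted p = 0.0105). Of its receptors, the gene for plexin C1, Plxnc1, showed a log2 fold change of 0.11 (95% interval -0.02 to 0.25) and was not called. The integrin gene Itga1, which encodes the partner chain of β1 in a collagen receptor, fell by 0.42 on the log2 scale (limma adjusted p = 0.00190), and Itgb1 showed a log2 fold change of -0.14 (limma adjusted p = 0.0987).

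Of the 6 class 4 semaphorins, which include ligands of B-class plexins and immune semaphorins, none was called, against 12% of all genes. Their log2 fold changes ran from -0.20 for Sema4f (95% interval -0.43 to 0.03) to 0.11 for Sema4d (95% interval -0.06 to 0.27), the ligand of plexin B1. Sema4a, Sema4b and Sema4g lay at 0.02, -0.0023 and -0.0072, and Sema4c, a ligand of plexin B2, at -0.09. The intervals of Sema4a, Sema4b, Sema4c and Sema4g stayed within -0.22 and 0.19. Among 6 genes, a count of none called lies near the share of all genes called.

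Of the 2 neuropilins, Nrp2 rose, against 5.38% of all genes called higher. Nrp2 favours Sema3f and Sema3b as ligands and also binds the lymphatic growth factor Vegfc. Its log2 level (probe set 17213548) was 10.73, 10.75 and 10.84 on the vehicle arrays and 11.11, 11.11 and 11.03 on the 4OHT arrays. The 4OHT arrays were all higher, a 1.24-fold rise (log2 fold change 0.31, SE 0.051, limma adjusted p = 0.0118). The call was lost without vehicle well 2 (limma adjusted p = 0.0525) or 4OHT well 2 (0.0550), and with the replicate number as a block (0.0545). Nrp1, the co-receptor of Sema3a and of Vegfa, read 11.12, 11.05 and 10.97 on the vehicle arrays and 11.03, 10.89 and 10.93 on the 4OHT arrays, which overlap. Its log2 fold change was -0.10 (95% interval -0.24 to 0.05). Whether the changes of Nrp1 and Nrp2 differ was not tested.

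Of 9 plexins, Plxna4, Plxnb1 and Plxnd1 fell (33.3%, against 6.62% of all genes called lower) and the other 6 were not called. Plxna4, a plexin that works with neuropilin 1 for Sema3a and alone for Sema6a, read 10.74, 10.77 and 10.76 (probe set 17465636) on the vehicle arrays and 10.53, 10.44 and 10.45 on the 4OHT arrays. The groups did not overlap, and Plxna4 was 1.22-fold lower (log2 fold change -0.29, SE 0.045, limma adjusted p = 0.00952). Its antisense gene Plxna4os1 showed a log2 fold change of 0.05 (95% interval -0.15 to 0.24). Plxna2 and Plxna3, plexins through which Sema6a and Sema3f can signal, had log2 fold changes of -0.17 (95% interval -0.32 to -0.03) and -0.15 (95% interval -0.28 to -0.02). Their groups did not overlap either, but neither passed over all genes (limma adjusted p = 0.117 and 0.136). The fold change of Plxna1 was 0.13 in log2 units (95% interval 0.02 to 0.25, limma adjusted p = 0.130). These 3 were called lower, lower and higher when genes below the median level were left out (limma adjusted p = 0.0348, 0.0417 and 0.0359).

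Plxnb1, the receptor of Sema4d, read 9.45, 9.44 and 9.51 (probe set 17522167) on the vehicle arrays and 9.16, 9.25 and 9.22 on the 4OHT arrays. The groups did not overlap, and the gene was lower (log2 fold change -0.26, SE 0.047, limma adjusted p = 0.0165). The second probe set of the gene read a mean log2 level of 6.48 on vehicle and 6.56 on 4OHT arrays, and with the mean of both the log2 fold change was -0.09 (limma adjusted p = 0.352). The call was also lost without vehicle well 1 (limma adjusted p = 0.0510), vehicle well 2 (0.0545) or 4OHT well 1 (0.0582), and with every probe set in the fit (0.0518). Plxnb2 and Plxnb3 had log2 fold changes of 0.04 (95% interval -0.06 to 0.14) and 0.01 (95% interval -0.15 to 0.16). Plxnd1, a receptor for Sema3e and, with neuropilins, for Sema3c and Sema3d, read 8.97, 8.97 and 9.02 (probe set 17469967) on the vehicle arrays and 8.84, 8.81 and 8.74 on the 4OHT arrays. It was 1.14-fold lower without overlap (log2 fold change -0.19, SE 0.047, limma adjusted p = 0.0440). That call was lost whichever array was left out, with limma adjusted p = 0.101, 0.112 and 0.109 without vehicle wells 1, 2 and 3 and 0.0741, 0.124 and 0.0950 without 4OHT wells 1, 2 and 3. It was also lost with the arrays centred on their medians (0.0691) and with every probe set in the fit (0.106).

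Genes that work with the family were counted next. Of 66 measured signalling partners, among 71 symbols listed, 4 rose and 6 fell (15.2% called, against 12% of all genes), with a median log2 fold change of -0.05. The count of partners called was 6 without vehicle well 1, 4OHT well 1 or 4OHT well 2, 9.09% of the partners against 7.15%, 6.64% and 5.5% of all genes in those fits. It was 24 with the trended, robust form of eBayes, 36.4% of the partners against 18.6% of all genes. Among proteases that cleave semaphorins, 3 of 7 fell and none rose, against 6.62% of all genes called lower. Adamts1, a secreted protease that can free Sema3c from the matrix, fell by 0.69 on the log2 scale (limma adjusted p = 0.000589). The proprotein convertase genes Pcsk5 and Pcsk6 fell by 0.65 and 0.36, while Furin, the convertase gene best known for processing class 3 semaphorins, showed a log2 fold change of -0.08 (limma adjusted p = 0.258).

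Vascular endothelial growth factors compete with class 3 semaphorins for neuropilins, and 3 of 8 measured ligands and receptors were called, against 12% of all genes. Vegfb, a ligand of Flt1 and neuropilin 1, rose from a mean log2 level of 10.70 ± 0.01 to 11.44 ± 0.04 (SD, n = 3), which was 1.68-fold (limma adjusted p = 0.000306). Vegfd, a lymphatic growth factor, fell by 0.25 on the log2 scale, a call lost without vehicle well 1 (limma adjusted p = 0.0551), vehicle well 2 (0.0650), 4OHT well 1 (0.0558) or 4OHT well 2 (0.0657). Kdr, the main endothelial receptor, rose by 0.21 (limma adjusted p = 0.0494), beside the endothelial markers given above, and that call was lost whichever array was left out (limma adjusted p from 0.0842 without 4OHT well 3 to 0.139 without vehicle well 2). It was also lost with every probe set in the fit (0.112), quantile normalization repeated (0.0877), probe sets averaged per gene (0.0505) or trended and robust eBayes (0.0542). Vegfa and Vegfc had log2 fold changes of 0.08 and 0.02 and were not called.

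Inside the cell, 2 of 17 measured small GTPase and exchange factor genes rose and none fell. The share called, 11.8%, was close to the 12% of all genes, of which 5.38% were called higher. Mras, a Ras-family GTPase on which plexins act, rose by 0.30 on the log2 scale (limma adjusted p = 0.00547), and Arhgef11, an exchange factor bound by B-class plexins, by 0.22 (limma adjusted p = 0.0282). The Arhgef11 call was lost without vehicle well 1, 2 or 3 (limma adjusted p = 0.0783, 0.0986 and 0.0678) or 4OHT well 1 or 2 (0.0841 and 0.104), and with every probe set in the fit (0.0766). Of 15 measured genes for collapsin response mediators, cofilin and their kinases only Dpysl5 was called, and it fell by 0.54 on the log2 scale (limma adjusted p = 0.0303). It was not called without vehicle well 1 or 3 (limma adjusted p = 0.0811 and 0.0818) or 4OHT well 1 or 2 (0.103 and 0.106), nor with every probe set in the fit (0.0719). None of the 5 genes for the actin-oxidizing MICAL proteins and their relatives was called by limma, and of 14 cell-surface partners only Itga1 was called.

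Other guidance families were counted beside the semaphorin family, and the difference between them was not tested. Of 40 measured netrin, slit and ephrin family genes 3 rose and 9 fell (30% called, against 12% of all genes). The count of those called was 7 without vehicle well 2, 4OHT well 1 or 4OHT well 2. That is 17.5%, against 6.02%, 6.64% and 5.5% of all genes in those fits. Among genes above the median level 17 of 27 were called (63%), against 58.3% of the semaphorin family and 35% of all such genes. With trended and robust eBayes the share was 42.5%, against 37.5% of the semaphorin family and 18.6% of all genes. Robo2, a slit receptor, fell by 0.71 on the log2 scale (limma adjusted p = 0.00587) and the ligand gene Slit3 by 0.22 (0.0229), while the receptor gene Robo1 showed a log2 fold change of 0.05. The netrin receptor genes Neo1 and Unc5b fell by 0.36 and 0.40 and the ligand gene Ntn3 by 0.40, and Unc5c rose by 0.33. Among ephrins and Eph receptors, Efnb2, Efna2 and Epha4 fell by 0.38, 0.38 and 0.37, and Epha2 rose by 0.34. The Slit3 call was lost whichever array was left out (limma adjusted p from 0.0544 without 4OHT well 3 to 0.0868 without vehicle well 2). The Unc5c call was lost without vehicle well 1 or 2 (0.0786 and 0.0845) or 4OHT well 1 or 2 (0.0905 and 0.0986), and the Ntn3 call without any array but 4OHT well 3 (0.0845 to 0.125). With every probe set in the fit the Slit3, Unc5c and Ntn3 calls were lost as well (limma adjusted p = 0.0672, 0.0687 and 0.0906).

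**Figure D4:**
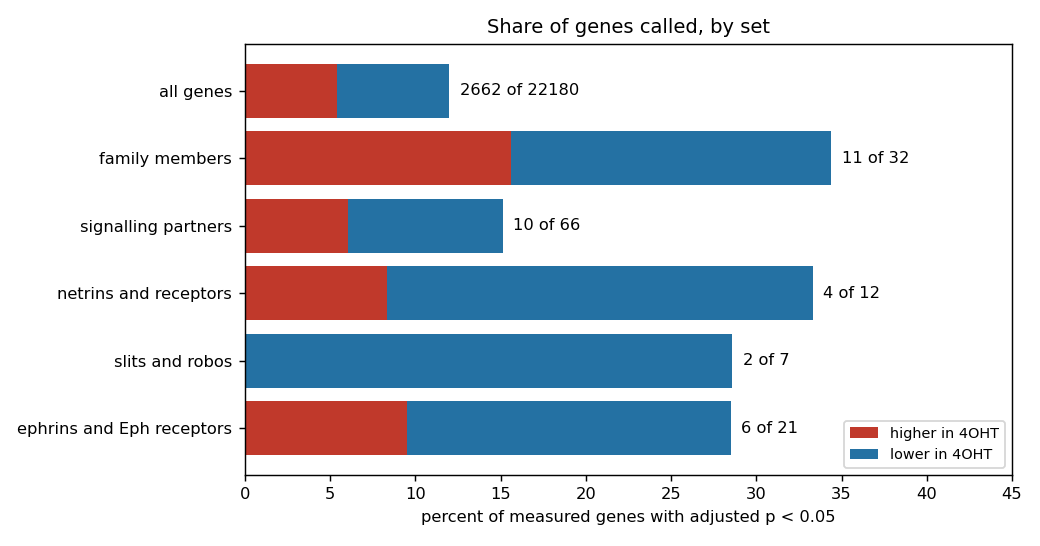
Percent of measured genes with a limma adjusted p under 0.05 (horizontal axis, from 0) in all genes, the semaphorin family, its signalling partners and 3 other guidance families, divided into genes higher and lower in 4OHT wells, with counts beside the bars. The family stands at 34.4% and the partners at 15.2%, against 12% of all genes. In a fit of genes above the median level alone, these shares were 58.3%, 40.4% and 35%.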

How the data were processed

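Arrays of 3 vehicle and 3 4OHT wells were compared. The deposited values are log2 expression per probe set. Tools listed in the submitters' processing notes are oligo, RMA and limma, without versions; RMA corrects background, quantile-normalizes the arrays and summarizes probes, so a shift of all genes would be removed and changes of dim genes are compressed. The genome build of the array annotation was not given in the sources used here. Of 41345 probe sets, 23521 had 1 gene symbol and were used; the probe set with the highest mean represented each of 22180 genes. No filter was set on dim genes, and 24 of 32 members lay above the median level.

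The groups were compared over all genes in R 4.3.3 with limma 3.58.1 (lmFit and eBayes, two-sided, 6.70 degrees of freedom, Benjamini-Hochberg adjustment, called under 0.05). Log2 fold changes are 4OHT minus vehicle. All members were named, with the called partners (up to 12) and the called genes of each other guidance family (up to 4) by smallest p. Members and lists were chosen with earlier results of these data known. Alternatives were leaving out each array, a replicate block, array weights, trended and robust eBayes, median centring, quantile normalization repeated, averaging a gene's probe sets, dropping genes below the median level, fitting all probe sets, an adjusted p under 0.01 and at least 1.2-fold. For genes that were not called, no direction was read.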

Additional observations from a re-analysis of the deposited data

How the results depend on the processing

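The count of genes called was 2662 as reported, 1568 with the replicate number as a block, 4123 with trended and robust eBayes, 1010 at an adjusted p under 0.01, 1389 in a fit over all probe sets, and 1220 to 2326 when 1 array was left out. The count of members called was 11 as reported, 5 with the replicate block (2 higher, 3 lower), 4 at an adjusted p under 0.01 (2 higher, 2 lower), 7 with at least 1.2-fold (3 lower) and 6 in the fit over all probe sets (3 higher, 3 lower); it was 5 to 9 with 1 array left out (2 to 5 higher, 3 to 4 lower). Stricter thresholds lower these counts by construction. With at least 1.2-fold, 21.9% of the members were called, against 8.61% of all genes (1910 of 22180). The shares were 15.6% and 7.07% with the replicate block, and 12.5% and 4.55% at an adjusted p under 0.01. In the fit over all probe sets they were 18.8% and 6.26%. Signalling partners called numbered 6 with the replicate block, 23 of 57 among genes above the median level (40.4%, against 35% of all such genes), 24 with trended and robust eBayes and 6 at an adjusted p under 0.01, and 6 to 11 with 1 array left out; other guidance genes numbered 6 at an adjusted p under 0.01 and 7 to 11 with 1 array left out. The cause of the other shifts was not tested.

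The deviations of same-numbered wells had correlations of 0.0624, -0.0239 and 0.0432, and 2 of 3 vehicle wells correlated best with their own number. Deviations from a mean of 3 wells depend on each other, so these values cannot decide whether the wells were paired. The replicate numbers were not taken as pairs in the main fit, and the block was run as an alternative. Sema3b, Sema5a, Sema3f, Sema7a and Plxna4 were called under every alternative run other than the stricter thresholds. With the replicate number as a block, the calls of Nrp2, Sema3c, Sema3d, Sema6a, Plxnb1 and Plxnd1 were lost (limma adjusted p = 0.0545, 0.0756, 0.0989, 0.0993, 0.0546 and 0.116). So were those of Gli1, Vegfd, Arhgef11, Dpysl5, Kdr, Unc5c and Slit3 (limma adjusted p = 0.056, 0.0619, 0.0836, 0.0507, 0.0862, 0.0864 and 0.0744). No named gene changed direction where it was called. Probe sets near the background of the array limit what can be said of the 8 members below the median level.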
